A study of Mus musculus with 8 samples.

Results

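The cytoplasmic ribosomal protein genes were examined in bulk RNA sequencing of mouse skin keratinocytes. They were taken by symbol, as every gene named Rpl or Rps followed by a digit together with Rplp0, Rplp1, Rplp2 and Rpsa, leaving out the Rps6k kinases and the copies whose names end in -ps. The rule found 88 of the 24421 gene symbols, 53 of the large subunit and 34 of the small subunit. The remaining gene, Rps19bp1, encodes a protein that binds Rps19 and is not itself a ribosomal protein.

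The 8 libraries came from mice on a CBA x C57Bl/6J background, whose age the labels do not give. The 4 control libraries had the genotype InvEE K5 Cre- HMGB1 fl/fl, and the 4 knockout libraries InvEE K5 Cre+ HMGB1 fl/fl. InvEE, an activated form of the kinase MEK1 driven by the involucrin promoter of differentiating keratinocytes, was present in both groups, so no library stands for normal skin. The Cre recombinase, driven by the keratin 5 promoter of basal keratinocytes, was present in the knockout alone, so its own effect and that of losing Hmgb1, which binds DNA in the nucleus and signals tissue damage once released, cannot be told apart. The labels do not say that the replicates are separate animals, so p-values measure only how these libraries vary, which may in part be technical. Y-linked counts, given below, differ between libraries of the same group.

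The ribosome translates mRNA into protein. Its small subunit reads the message and its large subunit forms the peptide bond, and each is built from ribosomal RNA and a fixed set of proteins, most of them present once in each particle. The mRNAs of these proteins belong to the TOP class, which begins with a C followed by an unbroken run of pyrimidines (C and T) and is translated under control of the kinase mTORC1. The same protein can come from a main gene and a paralog, and the mouse genome holds many processed copies of most ribosomal protein genes.

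Because that opening run is the sequence feature the class is known for, the region around the transcription start was read from RefSeq (build GRCm38.p6), which holds 67 of the 88 genes with 79 start sites. An unbroken run of at least 8 letters, each C or T, on the gene's strand and between 10 bases before and 50 bases after the start, was found in 45 of the 67 genes, or 67.2%. The share was 22.5% of 9844 other tested genes and 24.0% of all 27025 genes of the same table. It was 78.8% of 33 large subunit genes and 63.6% of 22 small subunit genes among those with a mean of at least 100 CPM (counts scaled to a common library size). The letters CTTTCC, searched on the gene's strand in the same window and free to overlap the run, were present in 28.4% of the ribosomal protein genes and in 3.04% of all genes. The windows below cover 15 bases on either side of the annotated start of genes in which the run spans the start, with the run in capitals. A match describes the letters only.
Rpl35, chr2:39005117-39005146, minus strand: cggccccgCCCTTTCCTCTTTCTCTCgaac
Rpl7a, chr2:26910792-26910821, plus strand: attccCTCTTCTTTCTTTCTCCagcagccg
Rpl15, chr14:18270972-18271001, minus strand: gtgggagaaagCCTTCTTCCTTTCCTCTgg
Rpl28, chr7:4792950-4792979, plus strand: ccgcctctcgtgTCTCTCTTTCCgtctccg
Rps18, chr17:33955651-33955680, minus strand: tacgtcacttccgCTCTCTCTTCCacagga
Rps27, chr3:90213634-90213663, minus strand: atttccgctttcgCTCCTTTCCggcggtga
Rps27rt, chr9:114982725-114982754, minus strand: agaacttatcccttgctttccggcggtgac

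The last of these belongs to Rps27rt, a near copy of Rps27 on another chromosome, and is shown beside its source: it has no run of 8 in the searched window, whose longest run there was 7 bases.

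Each library held between 30506676 and 34229030 counts on genes. Hmgb1 itself was 565, 599, 585 and 615 CPM in the controls and 113, 119, 126 and 114 CPM in the knockouts, a log2 fold change of -2.32 ± 0.0863 (SE; edgeR quasi-likelihood test, adjusted p = 3.58e-07), so the libraries matched their labels. CPM were scaled by TMM, which sets the libraries level on the genes that vary least, unless stated otherwise. The summed level of 8 keratinocyte markers was 49930 to 58829 CPM in the controls and 58035 to 64013 CPM in the knockouts. The summed fibroblast markers reached at most 24.0 CPM, the leukocyte markers 49.7 CPM, and the endothelial markers 1.94 CPM, while 4 of the 5 red cell markers (the globins Hba-a1, Hba-a2, Hbb-bs and Hbb-bt) were at 0. Y-linked genes held 6110 to 6743 counts in control libraries 2 and 3 and knockout library 1 and 0 to 51 counts in the other libraries, and the libraries were split at 1000 counts into those with many and those with few Y-linked transcripts. The file of knockout library 4 carries another number in its name than its sample title, and the title was followed.

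Ribosomal protein genes took 6.37%, 6.40%, 6.35% and 5.65% of all gene counts in the 4 controls and 6.47%, 5.80%, 6.69% and 5.43% in the 4 knockouts. The means, 6.19 ± 0.36% and 6.10 ± 0.585% (SD, n = 4 each), lay within each other's spread, and the groups overlapped. The 7 named -ps copies left out by the rule added between 0.000167% and 0.000355%. Counts on the large subunit exceeded those on the small subunit by a ratio of 1.43, 1.42, 1.45 and 1.47 in the controls and 1.47, 1.47, 1.45 and 1.49 in the knockouts. These ratios overlapped between the groups, with means of 1.44 ± 0.0231 and 1.47 ± 0.0169 (SD, n = 4 each).

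Expressed as CPM per kilobase of coding sequence, 74 genes with a mean of at least 100 CPM formed a narrow band. Their median was 1493, with the middle 50% between 1212 and 1915, and the medians of the 44 large and 30 small subunit genes in it were 1400 and 1636. Rpl41, whose coding sequence of 75 bases is the shortest of the band, stood highest at 10666, a value that rests on that length, since its level per kilobase of transcript was 1831 and below the 2411 of Rplp1. Rplp1, an acidic protein of the stalk that recruits elongation factors, followed at 3517 per coding kilobase. Rps29 was at 2949, and Rplp0, which anchors the stalk to the large subunit, at 2839. Rpl36al, at 556, was the lowest of the band.

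Below the band lay all tested paralogs but Rpl36al and, with them, a few genes whose proteins are ordinary parts of the ribosome. Per coding kilobase, the paralogs Rps27l, Rpl22l1 and Rpl7l1 were at 219, 168 and 83.0 CPM, and Rps19bp1 was at 33.9. The main genes Rpl34, Rps27 and Rpl30 were at 12.2, 11.7 and 7.08, and Rpl26 was at 0.0616, with no count in 5 of the 8 libraries. These 4 are thus listed far below the genes whose products they join in the same particle, in both groups alike. Of the 50-base stretches of their transcripts (GENCODE M21), 50.6% in Rpl34, 47.8% in Rpl30 and 71.3% in Rpl26 also occur in a transcript of another gene, shares that lie inside the range of the band, which ran from 0% to 92.1% with a median of 55.0%. For Rps27 the share was 98.6%, and the gene it shared most with was Rps27rt, itself at 0 counts in every library. The deposited counts list 0 reads as aligned in several places. No source used here says how the authors treated reads that fit several genes. The values of these 4 genes, and of any gene with many copies, are therefore uncertain, and the cause of the low values was not tested.

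**Figure D1:**
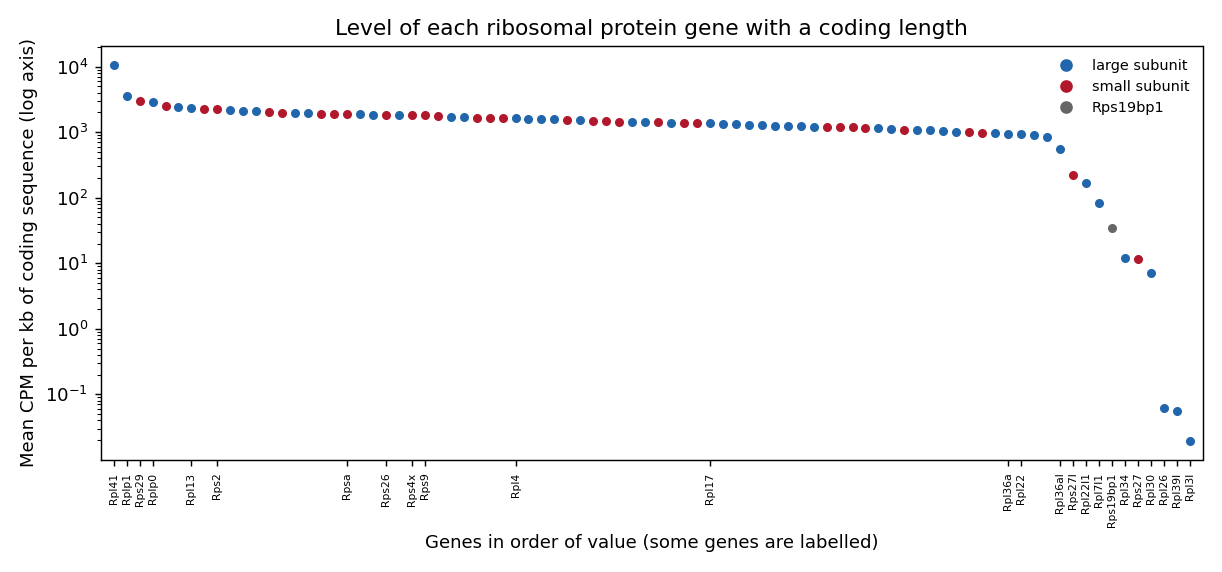
Mean level of each ribosomal protein gene with a coding length over the 8 libraries, in CPM per kilobase of coding sequence on a log axis, ordered from high to low (blue, large subunit; red, small subunit; grey, Rps19bp1; genes at 0 are not drawn). Most genes lie in a band around a median of 1493, and a step separates Rpl36al at 556 from Rps27l at 219 and the genes below it.

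Within the genotypes, the genes of the band moved together from library to library. On CPM by library totals, all 74 were higher in knockout library 3 than in knockout library 4, with a median ratio of 1.26-fold and a log2 range from 0.11 (Rpl4) to 0.54 (Rps12). All 74 were also higher in control library 2 than in control library 4, by a median of 1.16-fold. The same library ratios had a median of 1.00-fold and 1.01-fold over the other tested genes. Control library 4 was the lowest control for 72 of the 74 genes and knockout library 4 the lowest knockout for 72, against 27.9% and 14.8% of the other tested genes. Knockout library 2 was low as well: 1 of the 74 genes was above its mean over the 8 libraries there, against 2 in control library 4. These pairs of libraries were picked after their values were seen, so the ratios are descriptions.

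Both subunits shared the movement. Between knockout libraries 3 and 4 the median log2 ratio was 0.31 for the large and 0.35 for the small subunit, and between control libraries 2 and 4 it was 0.18 and 0.23. Short genes moved more: across the 74 genes, which share the libraries, the log2 ratio and coding length had a Spearman rho of -0.589 in the knockout pair and -0.396 in the control pair. Among 2016 other genes with at least 100 CPM, rho was -0.559 and -0.166. Other genes of that level with at most 600 coding bases (224 genes) had median log2 ratios of 0.13 and 0.022, below those of the ribosomal protein genes in both pairs. The part of transcript length in the shared movement was not tested further. The library that stands lowest depends little on the scaling, but the highest does: knockout library 3 was the highest knockout for 65 of the 74 genes by library totals, and knockout library 1 for 63 after TMM scaling.

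**Figure D2:**
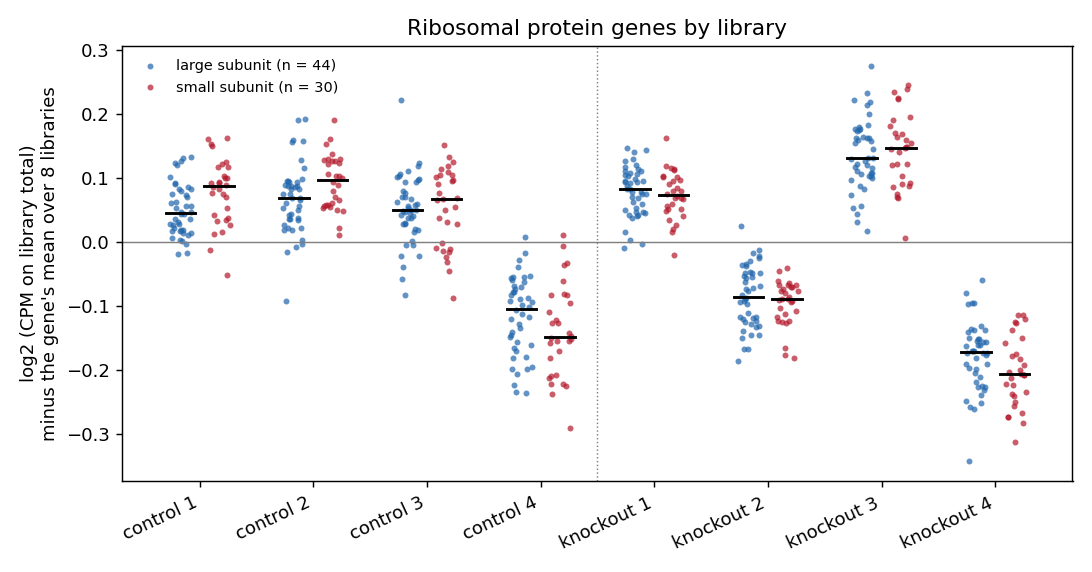
Log2 CPM by library total of each of the 74 genes with a mean of at least 100 CPM, less that gene's mean over the 8 libraries, for each library (blue, 44 large subunit genes; red, 30 small subunit genes; black bars, medians). Both subunits are low in control library 4, knockout library 2 and knockout library 4, and high in knockout library 3.

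Against that spread, deletion of Hmgb1 was compared with the control gene by gene in the edgeR fit over all 13016 genes that passed the filter on low counts, with p-values adjusted by Benjamini-Hochberg over all of them. Of the 88 ribosomal protein genes, 83 were tested, 49 large, 33 small and Rps19bp1. Rpl10l, Rpl26, Rpl39l, Rpl3l and Rps27rt did not pass the filter. At an adjusted p under 0.05, 0 of the 83 rose and 1, Rps4l, fell. Over all tested genes 8.87% were called, 4.33% higher and 4.54% lower. At an unadjusted p under 0.05 the counts for ribosomal protein genes were the same, 0 higher and 1 lower. Over all 13016 tested genes 1689 were higher and 1723 lower at that threshold. Rps4l was also the single ribosomal protein gene called in DESeq2 and in limma-voom, the latter both plain and with quality weights. In 1 of 83 genes the CPM of the groups did not overlap, against 17.0% of all tested genes.

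The fold changes of the large and the small subunit were alike in size. The median log2 fold change (knockout over control) was 0.07 in each, and the median of all tested genes was -0.02. For the 74 genes of the band the median was 0.08, and for 2067 other tested genes with at least 100 CPM it was 0.09. Under TMM 73 of the 83 genes were above 0, but this number rests on the scaling and on single libraries. It was 53 with upper-quartile scaling and 29 with library totals, a setting that moved the median of all tested genes by -0.11. It was 53 with quality weights, 51 without knockout library 1 and 61 without control library 4 or without knockout library 3. No direction of the group as a whole can therefore be given. The 95% interval of the fold change lay inside 1.5-fold in either direction for 80 of the 83 genes, including all 74 of the band, and for 55.2% of all tested genes. The exceptions were Rps4l and the weakly counted Rpl30 and Rpl37rt. Apart from Rps4l, the log2 fold changes ran from -0.26 in Rpl37rt, a retrotransposed relative of Rpl37, to 0.20 in Rpl17, a protein at the exit of the peptide tunnel. Within the band the values below 0 were those of Rpl36a (-0.07), Rps26 (-0.03), Rpl41 (-0.02) and Rps9 (-0.01), none of them past the test.

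This precision was near that of other strongly expressed genes. The median SE of the log2 fold change was 0.11 in the 74 genes and 0.11 in 2067 other tested genes with at least 100 CPM. The median SD of log2 CPM within a group was 0.14 and 0.15. Of those 2067 genes 10.16% were called, and of the 74 ribosomal protein genes 0 were. Since the 74 genes moved together from library to library, these are not 74 separate results.

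**Figure D3:**
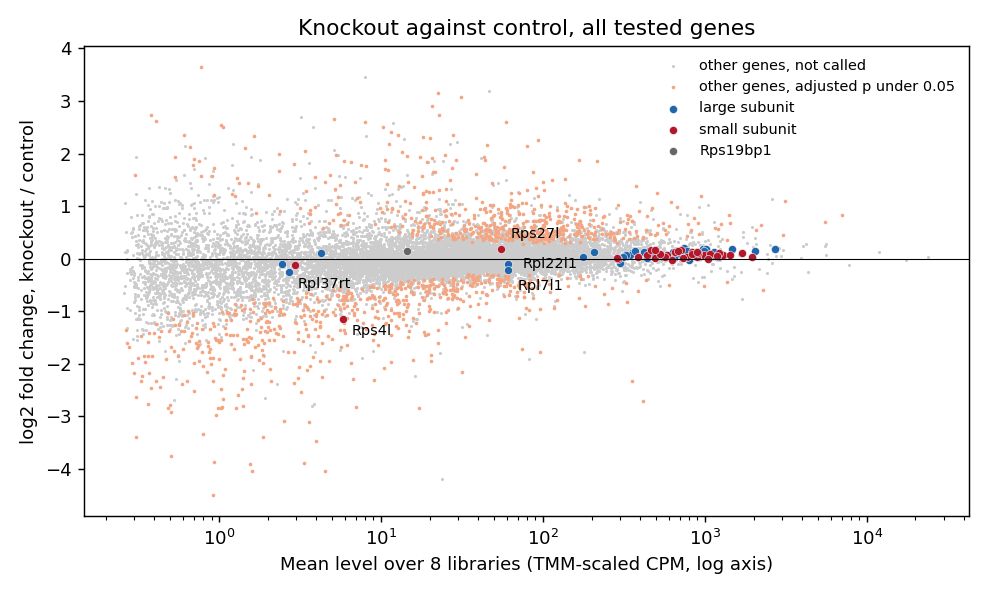
Log2 fold change, knockout over control, against the mean level in TMM-scaled CPM (log axis) for all 13016 tested genes (grey, not called; orange, adjusted p under 0.05), with large subunit genes in blue, small subunit genes in red and Rps19bp1 in dark grey. Most ribosomal protein genes lie close to 0 at the right of the plot, a few lie at low level on the left, and Rps4l, at -1.15, lies farthest from 0.

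Among the genes with the highest level, Rplp0 was 2590, 2460, 2621 and 2471 CPM in the controls and 3145, 2879, 2887 and 2549 CPM in the knockouts. The highest control lay above the lowest knockout, and the log2 fold change of 0.18 ± 0.0989 (SE) did not pass the test (edgeR adjusted p = 0.29). Rpl4, a protein that lines the exit tunnel of the nascent chain, was 1929, 1970, 1923 and 1961 CPM in the controls and 2461, 2072, 2119 and 1963 CPM in the knockouts (log2 fold change 0.15, edgeR adjusted p = 0.386). Here the controls lay within a narrow range and knockout library 4 reached down into it. Rps2, a protein of the mRNA entry site, was 1859, 1989, 2031 and 1913 CPM in the controls and 2228, 1941, 1971 and 1801 CPM in the knockouts, with knockouts both above and below all controls. Its log2 fold change was 0.027 (edgeR adjusted p = 0.89), and it changed sign with scaling by library totals. Rpl13, Rpsa and Rps4x, the others of the highest level, had log2 fold changes of 0.19, 0.10 and 0.06, of which those of Rpsa and Rps4x also changed sign with library totals.

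Among the genes nearest to a higher call were Rps27l, Rpl13, Rplp0 and Rpl17, with log2 fold changes from 0.18 to 0.20 and edgeR adjusted p from 0.246 to 0.293. Rps27l, a paralog of Rps27 known as a target of p53, had the smallest p of these. It was 46.6, 55.8, 56.0 and 48.0 CPM in the controls and 63.6, 56.3, 63.0 and 52.9 CPM in the knockouts. Knockout library 4 lay between the controls, so the groups overlapped, and the 95% interval of its fold change ran from 0.983 to 1.33. Mdm2, another target of p53 and the ligase that free ribosomal proteins are known to inhibit, had a log2 fold change of 0.21 (edgeR adjusted p = 0.452).

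**Figure D4:**
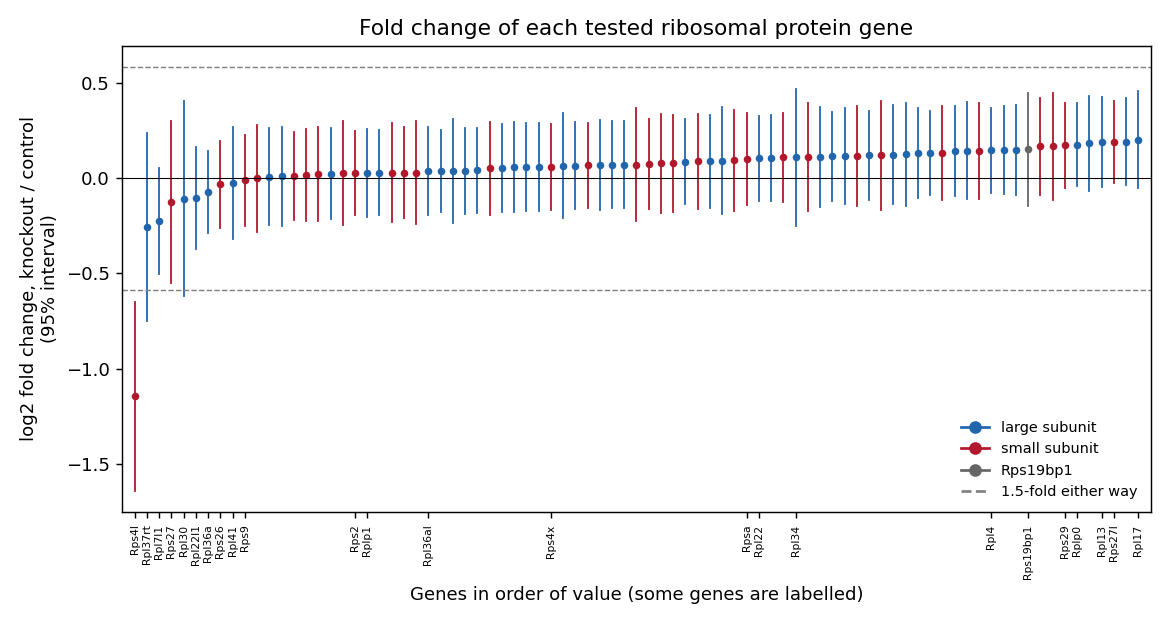
Log2 fold change, knockout over control, with its 95% interval for each of the 83 tested genes, ordered by value (blue, large subunit; red, small subunit; grey, Rps19bp1; dashed lines, 1.5-fold in either direction). The intervals of 80 genes lie between the dashed lines, and the interval of Rps4l alone lies wholly below 0.

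Rps4l, the gene that was called, is annotated in GENCODE M21 as a transcribed processed pseudogene at chr6:148354656-148355598 on the plus strand (GRCm38, the same assembly as mm10). Its main gene, Rps4x, encodes a small subunit protein and lies on chromosome X. Of the 50-base stretches of Rps4l, 17.97% occur in a transcript of another gene, Rps4l-ps. The share of its 100-base stretches found in another gene's transcript was 2.03%. Aligned over 788 bases, the transcripts of Rps4l and Rps4x were identical at 80.5% of positions with 3 gaps. The 90 bases in which they differ most are shown to make this visible, with the 26 mismatches in capitals.
Rps4x, chrX:102186413-102186502, minus strand: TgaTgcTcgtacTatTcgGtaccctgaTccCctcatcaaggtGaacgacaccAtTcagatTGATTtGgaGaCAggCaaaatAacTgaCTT
Rps4l, chr6:148355135-148355224, plus strand: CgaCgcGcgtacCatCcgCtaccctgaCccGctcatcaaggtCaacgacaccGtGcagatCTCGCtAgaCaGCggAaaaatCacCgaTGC

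Rps4l held 279, 266, 323 and 203 counts in the controls and 65, 119, 137 and 122 in the knockouts, or 7.79, 8.50, 9.95 and 5.93 CPM against 2.33, 3.90, 4.43 and 3.85 CPM. Every control lay above every knockout. It fell by 1.15 on the log2 scale (SE 0.225), or 2.21-fold, with an edgeR adjusted p of 0.0137, and was lower in 4 of 4 knockouts. The lowest knockout was library 1, the one with many Y-linked transcripts. With only the libraries that hold few of them, 2 controls and 3 knockouts, the log2 fold change was -0.76 and the edgeR adjusted p was 0.105, so the call was lost. Its main gene Rps4x, at 1399 ± 81.1 CPM in the controls and 1460 ± 137 CPM in the knockouts (SD, n = 4 each), was not called (edgeR adjusted p = 0.744).

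Rps4l lies inside Tmtc1, a gene for a membrane protein of the endoplasmic reticulum that spans chr6:148232430-148444389 on the opposite strand. Tmtc1 was looked up for this position, after the call of Rps4l was known. It was 6.06, 9.62, 11.5 and 6.92 CPM in the controls and 2.90, 2.95, 5.01 and 2.40 CPM in the knockouts, and it fell by 1.36 on the log2 scale (SE 0.273, edgeR adjusted p = 0.015). Both genes thus changed in the same direction and by similar factors. No source used here says whether the counting used strand, so within the bases of Rps4l the reads of the genes cannot be told apart. Counts per gene do not show how many Tmtc1 reads fall there.

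The paralogs were then set against their main genes, as the log2 ratio of CPM (0.1 CPM added to each) compared between the groups by a two-sided exact permutation test over the libraries. With 4 against 4 the smallest possible p is 0.0286. Of 8 pairs, 5 could be tested, and p-values were adjusted over these 5. The ratio differed in 3 pairs, Rps4l to Rps4x, Rpl22l1 to Rpl22 and Rpl36al to Rpl36a, each at that smallest p (adjusted p = 0.0476 in the exact permutation test). The adjusted p of each rests on all 3 pairs standing at that smallest p. The pair of Rps4l holds a gene already called above, so it is not a separate result. For Rps4l and Rps4x the counts of the paralog were 0.578 ± 0.138% of the main gene in the controls and 0.253 ± 0.0736% in the knockouts (SD, n = 4 each), a log2 difference of -1.20. These percentages are ratios of counts, used to compare libraries and not the levels of the genes. For Rps4x 72.2% of the 50-base stretches occur in transcripts of other genes, so its counts may be split with copies.

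Rpl22l1 encodes a close relative of Rpl22, a large subunit protein that is not needed for translation in general and is known to repress the Rpl22l1 mRNA. Counts of Rpl22l1 were 18.8, 19.3, 18.9 and 17.4% of those of Rpl22 in the controls and 16.9, 17.1, 15.5 and 14.7% in the knockouts. All 4 knockouts lay below all 4 controls, with means of 16.0 ± 1.13% and 18.6 ± 0.801% (SD, n = 4 each) and a log2 difference of -0.21. Neither gene differed by itself: Rpl22l1 had a log2 fold change of -0.10 (edgeR adjusted p = 0.624) and Rpl22 one of 0.10 (edgeR adjusted p = 0.553). Of their 50-base stretches 57.3% in Rpl22l1 and 24.5% in Rpl22 occur in transcripts of other genes, so these counts may be split with copies.

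Rpl36al on chromosome 12 encodes a near-identical form of the protein of the X-linked gene Rpl36a. Its counts were 54.9, 56.3, 58.4 and 56.9% of those of Rpl36a in the controls and 62.4, 59.9, 62.8 and 58.8% in the knockouts. All knockouts lay above all controls, though the lowest knockout and the highest control were less than a percentage point apart, and the log2 difference was 0.11. The log2 fold changes of the single genes were 0.037 for Rpl36al, whose sign changed with scaling by library totals, and -0.07 for Rpl36a, and neither passed the test. Of the 50-base stretches 85.5% in Rpl36a and 46.5% in Rpl36al occur in transcripts of other genes, so their counts may be split with copies.

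These 3 differences stood at the limit of what the design can show. When each library was left out in turn, the adjusted p of each pair ranged from 0.0476 to 0.0952 (exact permutation test), and it was above the threshold in 7 of 8 cases for each. Groups that do not overlap stay apart when a library is removed. With few regroupings and groups of unequal size, p moves in coarse steps. The adjusted p of each pair also depends on the p-values of the other pairs. How far the rise in adjusted p reflects a thin separation of the groups was not tested.

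The other pairs did not pass. Rpl7l1, a paralog of Rpl7 that acts in ribosome assembly, was at 4.73, 6.46, 7.16 and 5.76% of Rpl7 in the controls and 4.26, 4.35, 4.83 and 5.79% in the knockouts, with overlapping groups (log2 difference -0.32, p = 0.143, adjusted p = 0.179 in the exact permutation test). For Rps27l and Rps27 the log2 difference was 0.31 (exact permutation p = 0.229), on 2.96 CPM of Rps27. Rpl3l, a form known from heart and skeletal muscle, and Rpl10l and Rpl39l, forms known from the testis, were not detectable at this depth: Rpl10l had no count in any library and the others at most 2, where 3 counts correspond to 0.0838 to 0.107 CPM.

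**Figure D5:**
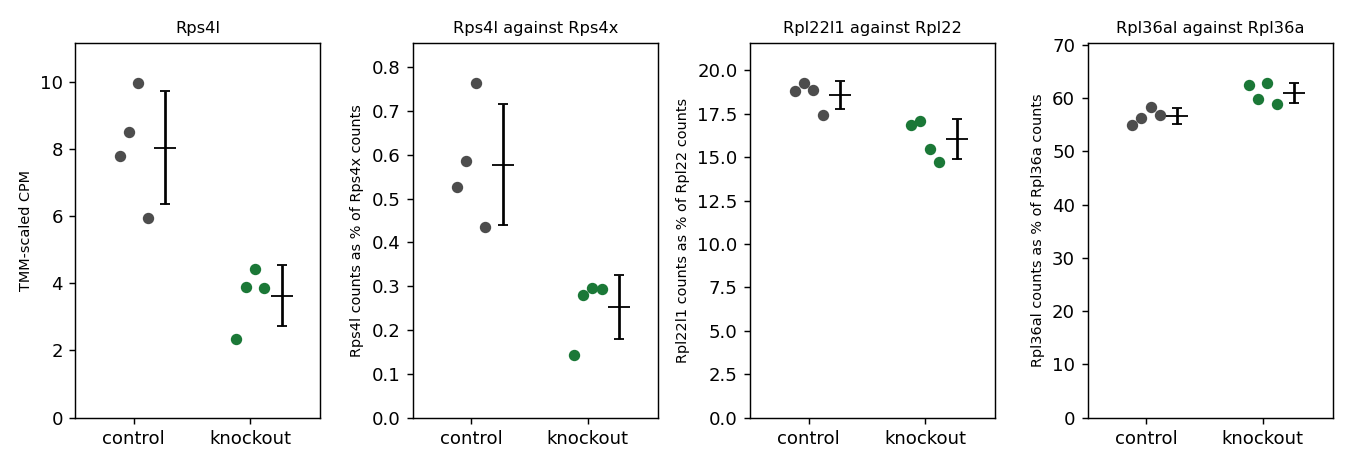
Rps4l in TMM-scaled CPM (left) and the counts of Rps4l, Rpl22l1 and Rpl36al as a percentage of those of Rps4x, Rpl22 and Rpl36a, for each library (points; grey, control; green, knockout) with mean and SD beside them. The groups do not overlap in any of the 4 panels, and relative to the control mean the difference is widest for Rps4l.

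Genes that work with these proteins were read from the same fit, from lists drawn up with earlier results of these data known. Of the ribosomal proteins whose names lie outside the rule, Fau, which is made as a fusion to a ubiquitin-like sequence, had a log2 fold change of 0.18, and Gnb2l1, the scaffold protein of the small subunit also called Rack1, had 0.016, with neither called. Of 57 ribosome assembly factors 0 rose and 1 fell, where 8.87% of all tested genes were called. Their median log2 fold change was -0.09, and 39 of the 57 were below 0, against 6916 of all 13016 tested genes. At an unadjusted edgeR p under 0.05, 2 of the 57 were higher and 11 lower, against 1689 and 1723 of the 13016. The number called lower was 2 with DESeq2 or upper-quartile scaling, 5 with quality weights and 8 with library totals. The gene called in the edgeR fit was Dkc1, the pseudouridine synthase of ribosomal RNA, at 54.8, 59.4, 63.1 and 64.8 CPM in the controls and 45.9, 39.6, 44.3 and 46.4 CPM in the knockouts. The groups were apart, and Dkc1 fell by 0.46 on the log2 scale (SE 0.0882, edgeR adjusted p = 0.0128). With only the libraries that hold few Y-linked transcripts its log2 fold change was also -0.46, and its edgeR adjusted p was 0.088.

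None of 15 subunits and factors of RNA polymerase I, which transcribes ribosomal RNA, was called (median log2 fold change -0.12), though 2 were lower with library totals, 1 was lower with quality weights and 1 was higher with a term for Y-linked transcripts. Over all 13016 tested genes 1689 were higher and 1723 lower at an unadjusted p under 0.05. Of the 15 genes of RNA polymerase I, 2 were higher and 3 lower at that threshold. The most strongly expressed of them, Ubtf and Polr1d, had log2 fold changes of -0.20 and 0.24, with edgeR adjusted p of 0.141 and 0.162. Over all tested genes 4.33% were called higher and 4.54% lower. Of 38 translation factors and other TOP mRNAs 1 rose and 0 fell (median 0.08), and of 22 genes of the mTORC1 pathway 1 rose and 0 fell (median 0.06). The first was Eif2s2, the beta subunit of the factor that brings initiator tRNA, at 172, 184, 168 and 165 CPM in the controls and 311, 257, 211 and 204 CPM in the knockouts, a log2 fold change of 0.51 (edgeR adjusted p = 0.0371). Its call was lost in 6 of the 8 fits that left out a library, in which its log2 fold change ranged from 0.39 to 0.60. The second was Ddit4, an inhibitor of mTORC1 induced by stress, at 32.9, 45.7, 39.2 and 36.1 CPM in the controls and 77.7, 69.6, 61.1 and 77.3 CPM in the knockouts. Every knockout lay above every control, and the log2 fold change was 0.89 (SE 0.119, edgeR adjusted p = 0.00338).

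Of 13 host genes of small nucleolar RNAs, many of them TOP transcripts, none was called, where 8.87% of all tested genes were (median of the 13 genes 0.10). Gas5 and Snhg1, the most strongly expressed, had log2 fold changes of 0.07 and 0.30 with overlapping groups. The mitochondrial ribosome, built from other genes, had 77 tested proteins, of which 0 rose and 1 fell, with a median of -0.11. Over all tested genes 8.87% were called. Of the 77 log2 fold changes 58 were below 0, against 6916 of all 13016. At an unadjusted edgeR p under 0.05, 1 of the 77 was higher and 6 lower, against 1689 and 1723 of the 13016. The number of mitochondrial ribosomal proteins called lower was between 0 and 3 over the 21 alternatives and differed from 1 in 12 of them. The gene called in the edgeR fit was Mrps12, at 17.5, 20.8, 23.0 and 19.3 CPM in the controls and 11.7, 12.7, 16.3 and 14.9 CPM in the knockouts (log2 fold change -0.54, edgeR adjusted p = 0.0354), a call lost in 6 of the 8 fits that left out a library, in which the log2 fold change ranged from -0.62 to -0.46. Myc, an activator of ribosomal protein gene transcription, was 213 ± 23.1 CPM in the controls and 151 ± 39.5 CPM in the knockouts (SD, n = 4 each), with an edgeR adjusted p of 0.0961. Mycn was 1.11 ± 0.695 CPM and 0.802 ± 0.39 CPM and was not called (edgeR adjusted p = 0.607).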

How the data were processed

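Counts per gene symbol were deposited by the authors for each library as whole numbers without normalization. The submitters' processing notes list TopHat2 2.1.0 on the build mm10, with Trimmomatic 0.35, FastQC 0.11.4 and SAMtools 0.1.18. How reads were assigned to genes, with which annotation and whether by strand, is not given in the sources used here. Reads outside genes (15.7 to 21.7%) and ambiguous reads (0.918 to 1.11%) were left out of library sizes. These percentages are of all listed reads, those on genes and those not assigned to a gene together.

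Genes were filtered with filterByExpr, scaled by TMM and tested with edgeR 4.0.16 (R 4.3.3; robust quasi-likelihood fit, genotype as the only term, 8 libraries), with Benjamini-Hochberg adjustment over 13016 genes and a threshold of 0.05. DESeq2 1.42.0, limma 3.58.1, other scalings and filters, a replicate block, a Y-linked term and leaving out libraries were alternatives. The code was tested on simulated data. Levels use the GENCODE M21 coding length, since the protein table planned for this was not used here. Named genes were the called ones, genes nearest to a higher call, the 3 highest of each subunit, the paralog pairs and up to 3 genes of each related list, with Mdm2, Myc and Mycn by name; some genes that this rule names are not reported here. The members, lists and tests were chosen with earlier results of these data known.

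Same-numbered libraries of the groups did not deviate together (correlations from -0.229 to -0.0433).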

Additional observations from a re-analysis of the deposited data

Results flagged for a closer look

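Among 70 groups of 4 libraries checked for a single library far from the others, 2 stood out, where chance alone gives about 1 in 20. Both were control library 4. Its share of gene counts on ribosomal protein genes was 5.65%, and the nearest control was at 6.35%. Its level of Rpl7, a large subunit protein, was 1018 CPM, and the nearest control was at 1109 CPM.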

How the results depend on the processing

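The count of ribosomal protein genes called higher was 0 in the reported analysis and in all 21 alternatives. The count called lower was 1, Rps4l, in 20 of them and 0 with only the libraries that hold few Y-linked transcripts, a fit on 5 libraries in which 383 genes were called in all. Rps4l had a log2 fold change from -1.27 to -0.76 over the alternatives, with an edgeR adjusted p from 0.016 to 0.0415 when 1 library was left out. The log2 differences of the paralog ratios with 1 library left out ranged from -1.32 to -0.95 for Rps4l to Rps4x, from -0.25 to -0.17 for Rpl22l1 to Rpl22 and from 0.092 to 0.12 for Rpl36al to Rpl36a.

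Signs near 0 were not stable, and none of these genes was called in any setting. With library totals the log2 fold change was -0.084 for Rps2, -0.0085 for Rpsa, -0.049 for Rps4x, -0.0067 for Rpl22, -0.075 for Rpl36al, -0.046 for Rpl3 and -0.0068 for Rpl10. With upper-quartile scaling it was -0.028 for Rps2 and -0.018 for Rpl36al, and with quality weights -0.0026 and -0.031. Without the libraries that hold many Y-linked transcripts it was -0.018 for Rps4x and 0.011 for Rpl7l1. Leaving out 1 library gave -0.027 to 0.080 for Rps2, -0.19 to 0.0037 for Rpl22l1 and -0.028 to 0.12 for Rpl36al. The cause of these changes was not tested.

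Among the related lists, the mTORC1 genes called higher were 3 with DESeq2 or quality weights. The labels' shared replicate numbers are not said to mark a shared litter or day, and 0 of 4 libraries correlated best with their own number. With the replicate block 1 ribosomal protein gene was lower, again Rps4l, and 0 were higher. Over all genes 723 were called with the block, against 1154 without it, 2010 with DESeq2 and 1912 with quality weights. Leaving out a library gave between 462 (without knockout 2) and 1247 (without knockout 3), with 550 without control 2, 769 without control 4, 718 without knockout 1 and 775 without knockout 4. Counts on genes with many copies depend on how the authors placed shared reads, and genes under 3 counts are beyond this depth.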
